A study of Mus musculus with 6 samples.

Results

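A list of 30 genes of peripheral glia was examined in mouse carotid body and adrenal medulla, and 28 of them were measured, among 18193 genes in all. The list was drawn up by name, from textbook markers of Schwann cells, satellite cells and the type II cells of the carotid body, and not by measured values, although earlier results of these data were known when it was made. A gene counted as measured when at least 1 probe set carried its symbol alone, and its brightest probe set over the 6 arrays stood for it. Prx and Gldn had no such probe set and are not analysed here. Of the 28, 11 were taken as myelin genes and 17 as other glial genes.

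Expression was measured on 6 microarrays, 3 of carotid body and 3 of adrenal medulla, all from untreated adult mice of the C57/BL6 strain (Charles River). Each carotid body sample pooled 18 organs and each adrenal sample 10 medullas, from 10 mice. By the series' design text, a shared number, 1, 2 or 3, stands for 1 cohort of mice. Levels of the female-specific RNA Xist, given further on, differed widely between same-numbered pools. Whether such pools hold the same mice was not tested. Values are log2 intensities, so a step of 1 is a doubling of signal, and all differences are carotid body minus adrenal medulla.

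The carotid body senses arterial oxygen through clusters of glomus cells, which are wrapped by type II cells, a glia-like cell type that can act as a progenitor. Schwann cells accompany the sinus nerve and autonomic fibres into the organ, some of them forming myelin around single axons and others holding thin axons without myelin. In the adrenal medulla, Schwann cells follow the preganglionic nerve and satellite-like cells lie around chromaffin cells; Schwann cell precursors are also a developmental source of chromaffin cells. SOX10 is the transcription factor shared by all of these glia, and ERBB3 is their receptor for axonal neuregulin.

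Glia genes were higher in carotid body as a rule. Of the 28 measured genes, 19 were higher in carotid body at an adjusted p under 0.05 and at least 2-fold (limma, Benjamini-Hochberg over all 45037 probe sets), 0 were lower and 9 were not called. Over all 18193 genes, 5.91% were called higher and 6.08% lower by the same rule. The split was 6 of 11 myelin genes and 13 of 17 other glial genes. The median difference was 1.12 for the myelin genes and 2.24 for the others, against -0.04 over all genes. Pmp2, Mag, Cldn19 and Drp2 among the myelin genes, and Gfap alone among the others, were at or below the 38.8th percentile of level in carotid body. Whether signal level accounts for the gap between the 2 medians was not tested. The 3 carotid body arrays lay above all 3 adrenal medulla arrays for 25 of the 28 genes, a pattern found for 17.8% of all genes; the reverse held for 0 of the 28 and for 26.1% of all genes. Centring each array on its median moved the share of called probe sets that were higher in carotid body from 56.5% to 46.0%, and 6 myelin and 12 other glial genes were still called higher. In pooled tissue, fewer glia and less glial RNA per cell cannot be told apart.

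Levels of glial markers from the list itself were set against all genes, as a description. Sox10, S100b, Erbb3, Cdh19 and Fabp7 had mean levels in carotid body between the 87.9th (Erbb3) and the 96.7th (Fabp7) percentile of all genes, and between the 58.7th (S100b) and the 78.7th (Fabp7) in adrenal medulla. Gfap, the intermediate filament commonly used to mark type II cells, stood at the 34.5th percentile in carotid body, and at the 33rd in adrenal medulla. Sox2 and Foxd3 stood at the 65.6th and 60.3rd percentile in carotid body and at the 32.4th and 40.6th in adrenal medulla. The glial label therefore rested on the brighter markers, which belong to the list under study.

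Several measures differed between the tissues along with the glia genes, and their part in the results was not tested. Over all genes 5.91% were called higher and 6.08% lower. All 9 fibroblast markers and 8 of 9 smooth muscle and pericyte markers were called higher in carotid body. The log2 of the summed fibroblast markers was 15.58 to 15.80 on the carotid body arrays against 12.79 to 13.12 on the adrenal arrays. Vim, Nes and Apod among the glia genes are also known from such cells. Of 11 chromaffin and glomus markers 8 were called lower in carotid body and 0 higher, with a median difference of -1.81 and summed log2 levels of 15.27 to 15.48 against 16.41 to 16.80. Cortex RNA was present in all adrenal medulla pools, where the steroid carrier gene Star was 13.92, 13.95 and 13.52. It was also present in carotid body array 1, where Star was 12.06 against 3.85 and 3.81 on arrays 2 and 3. Without carotid body array 1, 6 myelin genes and 13 other glial genes were called, as with it. That leaves the cortex RNA of the adrenal pools in place, and its part cannot be told apart from tissue in this design. Levels of the X-linked Xist ran from 8.84 to 10.96 on the carotid body arrays and from 4.45 to 5.60 on the others, a difference of 4.85 (adjusted p = 0.000693). Whether same-numbered pools hold the same mice, or mice of the same sex, was not tested. A difference in sex could not be told apart from tissue for any gene here. The cohort numbers are used only as the labels give them. Drp2, Gpm6b and L1cam lie on the X chromosome. The 3' minus 5' difference of the Gapdh control probe sets was 0.59 to 1.45 for carotid body against 0.13 to 0.61 for adrenal medulla, and it grows as RNA or label becomes shorter.

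**Figure D1:**
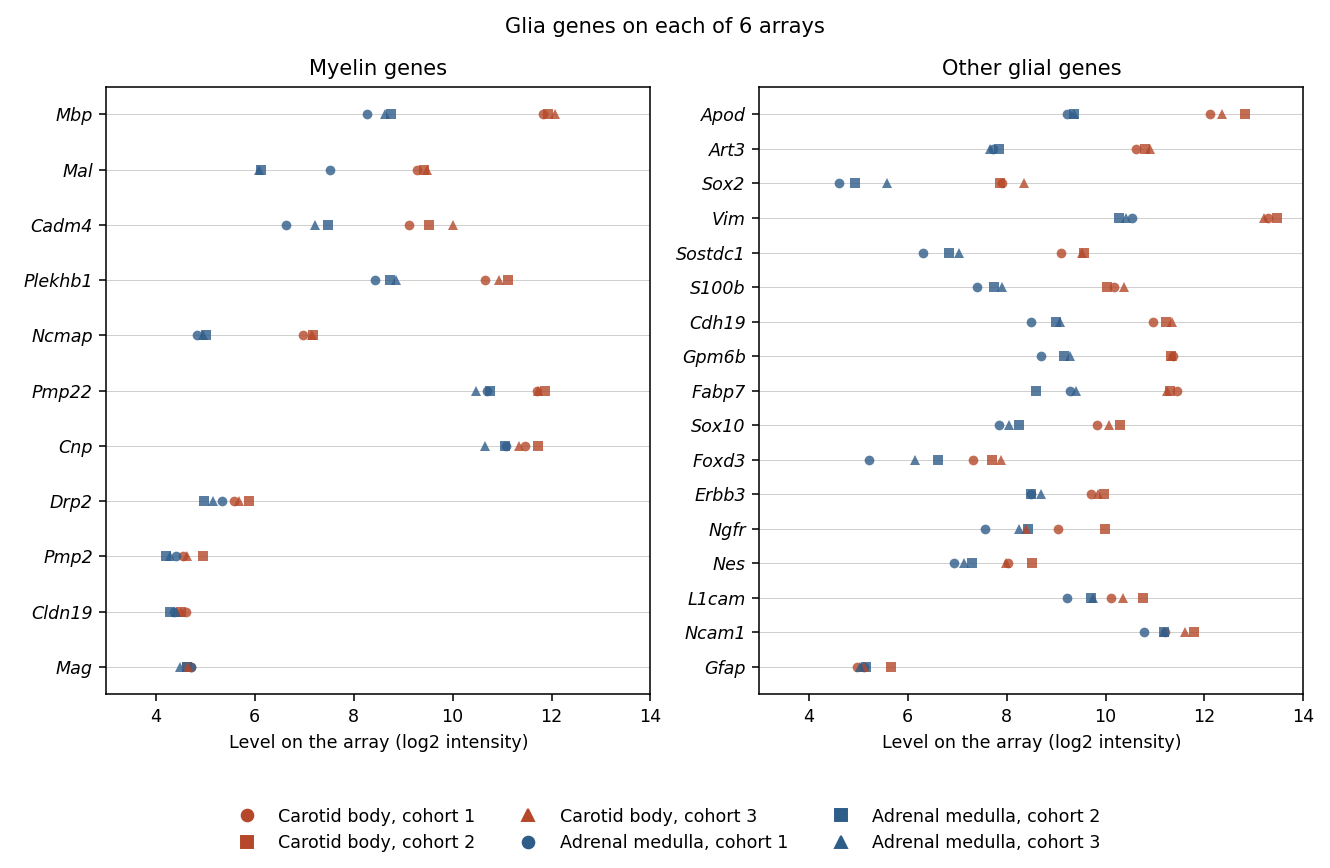
Level of each measured glia gene on each array (x axis, log2 intensity), with myelin genes on the left and other glial genes on the right, ordered by difference. Symbols mark cohorts and colours mark tissues. Levels of Mbp, Vim and Art3 are well separated by tissue, while those of Mag and Gfap overlap.

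Among structural proteins of myelin, Mbp differed most. Mbp encodes myelin basic protein, which holds the inner faces of the myelin membrane together. Its level was 11.83, 11.93 and 12.07 in carotid body against 8.27, 8.75 and 8.63 in adrenal medulla. The groups were far apart, with a difference of 3.39 ± 0.15 (SE), or 10.5-fold (adjusted p = 2.02e-05). Pmp22, a membrane protein of compact myelin whose gene dose is altered in inherited neuropathy, was abundant in both tissues, at 11.70, 11.86 and 11.73 against 10.70, 10.75 and 10.47. The difference of Pmp22, 1.12 ± 0.12, was 2.18-fold (adjusted p = 0.00078). Cnp, an enzyme of the myelin cytoplasm that many other cells also express, was 11.46, 11.73 and 11.35 in carotid body against 11.09, 11.06 and 10.65 in adrenal medulla. These groups did not overlap, but the difference of 0.58 ± 0.17 was under 2-fold (adjusted p = 0.0392).

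Mal, a lipid raft protein of myelin that epithelia also make, was even in carotid body and uneven in adrenal medulla. It was 9.28, 9.42 and 9.48 in carotid body against 7.52, 6.13 and 6.09 in adrenal medulla, so array 1 stood above the other adrenal arrays. The difference was 2.81 ± 0.36 (adjusted p = 0.00157), and 3.28 without adrenal medulla array 1. Plekhb1, a membrane-binding protein abundant in myelinating glia, was 10.65, 11.12 and 10.94 against 8.44, 8.73 and 8.86. That is a difference of 2.22 ± 0.17 (adjusted p = 0.000164).

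Adhesion and Schwann cell membrane genes followed Mbp in part. Cadm4, the glial partner in the contact between Schwann cell and axon along the internode, was 9.12, 9.51 and 10.01 in carotid body against 6.62, 7.48 and 7.22 in adrenal medulla. Its difference was 2.44 ± 0.28 (adjusted p = 0.001). Ncmap, a small membrane protein of non-compact myelin, was 6.97, 7.17 and 7.16 against 4.84, 5.01 and 4.95, a tight separation of 2.17 ± 0.12 (adjusted p = 4.14e-05). Drp2, a dystrophin relative that joins periaxin to dystroglycan at the Schwann cell surface, was 5.57, 5.88 and 5.69 against 5.35, 4.97 and 5.15. Its difference of 0.56 ± 0.14 did not reach 2-fold (adjusted p = 0.0274).

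The other 3 myelin genes were dim in both organs. Pmp2, a fatty acid binding protein of Schwann cells, was 4.54, 4.95 and 4.63 in carotid body against 4.40, 4.20 and 4.29 in adrenal medulla (adjusted p = 0.0782). Cldn19, the claudin of Schwann cell tight junctions, was 4.61, 4.50 and 4.51 against 4.36, 4.28 and 4.40 (adjusted p = 0.249). Mag, an adhesion protein on the myelin face next to the axon, was 4.72, 4.64 and 4.65 against 4.70, 4.63 and 4.49, with overlapping groups and a difference of 0.06 ± 0.11 (adjusted p = 0.761). As percentiles of level in carotid body, these 3 genes ran from 25.5 for Cldn19 to 28.1 for Pmp2. No detection calls were used, so whether these genes were above background was not tested. Of the 5 myelin genes not called, Cnp alone was bright.

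The transcription factors of glial identity were higher in carotid body. Sox10 was 9.83, 10.30 and 10.08 in carotid body against 7.85, 8.25 and 8.04 in adrenal medulla. The groups were separate, with a difference of 2.02 ± 0.16, or 4.06-fold (adjusted p = 0.000223). Sox2, which marks immature Schwann cells and satellite glia and is shut down as myelin forms, was 7.90, 7.86 and 8.34 against 4.60, 4.94 and 5.59. At 2.99 ± 0.26, or 7.95-fold, its difference was the largest of the 3 transcription factors (adjusted p = 0.000291). Foxd3, a factor of neural crest and early glia, was 7.32, 7.71 and 7.88 against 5.22, 6.61 and 6.15. Adrenal medulla array 1 was lowest, and the difference was 1.64 ± 0.34 (adjusted p = 0.0111), with adjusted p of 0.0525 and 0.0593 without cohorts 2 and 3.

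Receptors and secreted proteins of glia showed differences of unequal size. Erbb3, the neuregulin receptor, was 9.71, 9.97 and 9.84 in carotid body against 8.49, 8.50 and 8.69 in adrenal medulla. Its difference of 1.28 ± 0.12 (adjusted p = 0.000438) was 2.43-fold. Apod, a lipid-binding secreted protein of Schwann cells and fibroblasts, was 12.11, 12.83 and 12.36 against 9.22, 9.36 and 9.35, a difference of 3.12 ± 0.19 (adjusted p = 5.68e-05). Sostdc1, a secreted antagonist of BMP and Wnt signals, was 9.09, 9.56 and 9.53 against 6.31, 6.84 and 7.04, a difference of 2.66 ± 0.22 (adjusted p = 0.000235). Both secreted proteins had separate groups.

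Ngfr, the low-affinity neurotrophin receptor of non-myelinating Schwann cells and of ganglion neurons, varied most among the carotid body arrays. It was 9.04, 9.99 and 8.39 there and 7.56, 8.43 and 8.25 in adrenal medulla, so array 3 fell inside the adrenal range. The difference was 1.06 ± 0.40 (adjusted p = 0.101), and with the cohort as a replicate block the adjusted p was 0.0434; without carotid body array 3 the difference was 1.43 (adjusted p = 0.0209). Of 16 axon and neuron markers, 5 had the same order of carotid body arrays, array 2 highest and array 3 lowest, and 11 had another order. The share of all genes with that order was not computed. Array 2 was the highest carotid body array for 11 of the 16 markers, or 68.8%, and for 30.7% of all genes. Whether neurons account for the spread of Ngfr was not tested.

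Cytoplasmic and filament markers divided. S100b, the calcium-binding protein used to stain glia and type II cells, was 10.16, 10.03 and 10.37 in carotid body against 7.40, 7.74 and 7.91 in adrenal medulla. Its difference was 2.50 ± 0.16 (adjusted p = 8.77e-05). Fabp7, a fatty acid binding protein of satellite glia and immature Schwann cells, was 11.44, 11.31 and 11.23 against 9.28, 8.59 and 9.40, a difference of 2.24 ± 0.22 (adjusted p = 0.000443). Both had groups that did not overlap.

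The intermediate filament genes Vim and Nes were higher in carotid body and Gfap was not called. Vim, vimentin, the filament of glia and of mesenchymal cells, was 13.29, 13.47 and 13.21 against 10.53, 10.28 and 10.41. That is a difference of 2.91 ± 0.13 (adjusted p = 1.81e-05) at one of the brightest levels on the array, the 99.7th percentile in carotid body. Nes, nestin, a filament of progenitors that glia and vessel cells also make, was 8.03, 8.52 and 7.98 against 6.94, 7.30 and 7.13. The difference of Nes, 1.05 ± 0.18, was just past 2-fold (adjusted p = 0.00507), and it was below 2-fold with arrays centred on their medians (0.94), with the mean of its probe sets (0.65), and without carotid body array 2 (0.88), adrenal medulla array 1 (0.96) or cohort 2 (0.97). Gfap was 4.98, 5.66 and 5.12 against 5.11, 5.16 and 5.03, with overlapping groups and a difference of 0.15 ± 0.18 (adjusted p = 0.625).

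Surface genes of glia and axons also differed in size. Cdh19, a cadherin of Schwann cell precursors and non-myelinating glia, was 10.96, 11.22 and 11.34 in carotid body against 8.50, 9.01 and 9.07 in adrenal medulla, a difference of 2.31 ± 0.18 (adjusted p = 0.00021). Gpm6b, a relative of proteolipid protein, was 11.36, 11.33 and 11.34 against 8.70, 9.17 and 9.28, a difference of 2.30 ± 0.16 (adjusted p = 0.000132). Art3, a surface protein of the ADP-ribosyltransferase family, was 10.61, 10.80 and 10.90 against 7.72, 7.85 and 7.67. Among the other glial genes it had the smallest adjusted p, 1.69e-05, with a difference of 3.02 ± 0.12.

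L1cam and Ncam1, adhesion proteins that axons and neuroendocrine cells share with non-myelinating Schwann cells, were bright in both organs. L1cam was 10.11, 10.76 and 10.36 in carotid body against 9.22, 9.71 and 9.75 in adrenal medulla, a difference of 0.85 ± 0.21 that stayed under 2-fold (adjusted p = 0.0232). Ncam1 was 11.21, 11.78 and 11.60 against 10.78, 11.18 and 11.17 (difference 0.49 ± 0.18; adjusted p = 0.101).

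**Figure D2:**
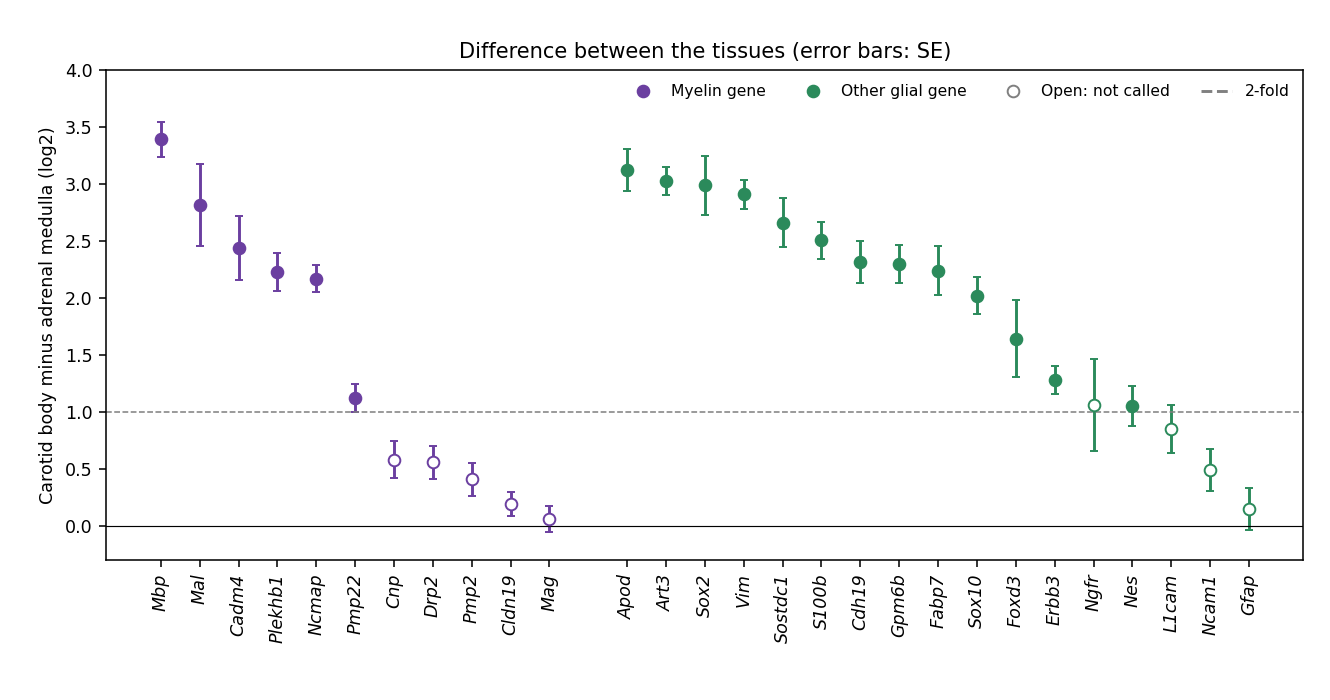
Difference between carotid body and adrenal medulla for each measured glia gene (y axis, log2), with SE from limma; filled points were called and open points were not. The dashed line marks 2-fold. Mbp is highest at 3.39 and the 5 open myelin points lie at 0.58 or lower.

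Against the change in Sox10, the genes fell into different sizes. Differences were taken within each array, as the log2 ratio of a gene to Sox10, and are given as a description with no test. Sox10 was chosen as the reference after its values were seen. The ratio of Mbp to Sox10 was higher in carotid body by 1.37 ± 0.13 (SE, n = 3 a tissue) and that of Apod by 1.10 ± 0.11. Cdh19, Gpm6b, Fabp7, Ncmap and S100b differed from Sox10 by 0.15 to 0.48, with ratios that overlapped between tissues. The ratio of Pmp22 to Sox10 was lower in carotid body by a difference of -0.90 ± 0.16, that of Erbb3 by -0.74 ± 0.14 and that of Ncam1 by -1.53 ± 0.08. Of the 11 myelin genes, 2 exceeded Sox10 without overlap, 6 fell short without overlap and 3 overlapped. For the 16 other glial genes these numbers were 5, 6 and 5. These numbers rest on the brightest Sox10 probe set. Its difference stood at the 98th percentile of all genes, so most genes would fall short of it. The share of all genes that did so without overlap was not computed. Against the mean of the 3 Sox10 probe sets, an alternative chosen after seeing the data, Pmp22 was at 0.21 and Erbb3 at 0.37 in place of negative values. Mbp was then at 2.48. Then 5 myelin and 11 other glial genes exceeded Sox10 without overlap, and 4 and 1 fell short. For neither reference were the shares of all genes that exceeded Sox10 or fell short computed. The counts therefore have no background beside them.

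Within a tissue, the 2 classes shifted less from pool to pool than between tissues. The mean level of the myelin genes was 8.22, 8.43 and 8.38 in carotid body against 6.94, 6.91 and 6.84 in adrenal medulla. For the other glial genes it was 9.83, 10.18 and 9.99 against 7.85, 8.17 and 8.23. Carotid body array 2 was the highest of its tissue for 16 of the 28 genes, or 57.1%, and for 30.7% of all genes, among which array 3 was most often highest, at 41.8%. In adrenal medulla, array 1 was the highest for 5 of 11 myelin genes, 1 of 17 other glial genes and 32.6% of all genes, with no test of these shares. All 3 same-numbered pairs gave a positive difference for 27 of the 28 genes, Gfap being the exception, and for 25.1% of all genes.

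Where a gene had several probe sets, they did not always give the same value. The 28 genes had 64 probe sets, of which 35 were called higher, 0 lower and 29 were not called; over all probe sets tested, 5.95% were called higher and 4.58% lower. Among the 17 genes with more than 1, all probe sets were called for 6 genes (Apod, Gpm6b, Mal, S100b, Sostdc1 and Vim), some for 7 and none for 4 (Cnp, Gfap, L1cam and Ngfr). The 3 probe sets of Vim gave 2.91, 3.11 and 3.41, and the pair for S100b gave 2.50 and 2.76. Mbp had 8, and 6 of them were called, between 1.37 and 3.64. The other 2 Mbp probe sets gave 0.83 and 0.44 (adjusted p = 0.0512 and 0.175), and the first of these averaged 9.23 in carotid body against 8.41 in adrenal medulla, so it was not dim. For Sox10 the dimmer probe sets both gave 0.35 against 2.02 at the brightest. With the mean of all probe sets, Sox10 was at 0.91 and Erbb3 at 0.61, both under 2-fold.

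For Ncam1 the called probe set was not the brightest. Of 7 probe sets 1 was called, at 7.39, 7.81 and 6.91 in carotid body against 4.53, 4.48 and 5.08 in adrenal medulla, a difference of 2.67 (adjusted p = 0.000426). The other 6 lay between -0.24 and 0.58. Drp2 likewise had 1 called probe set of 3, at 1.04 (adjusted p = 0.00174), which was not its brightest. Which transcripts these probe sets read was not tested.

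**Figure D3:**
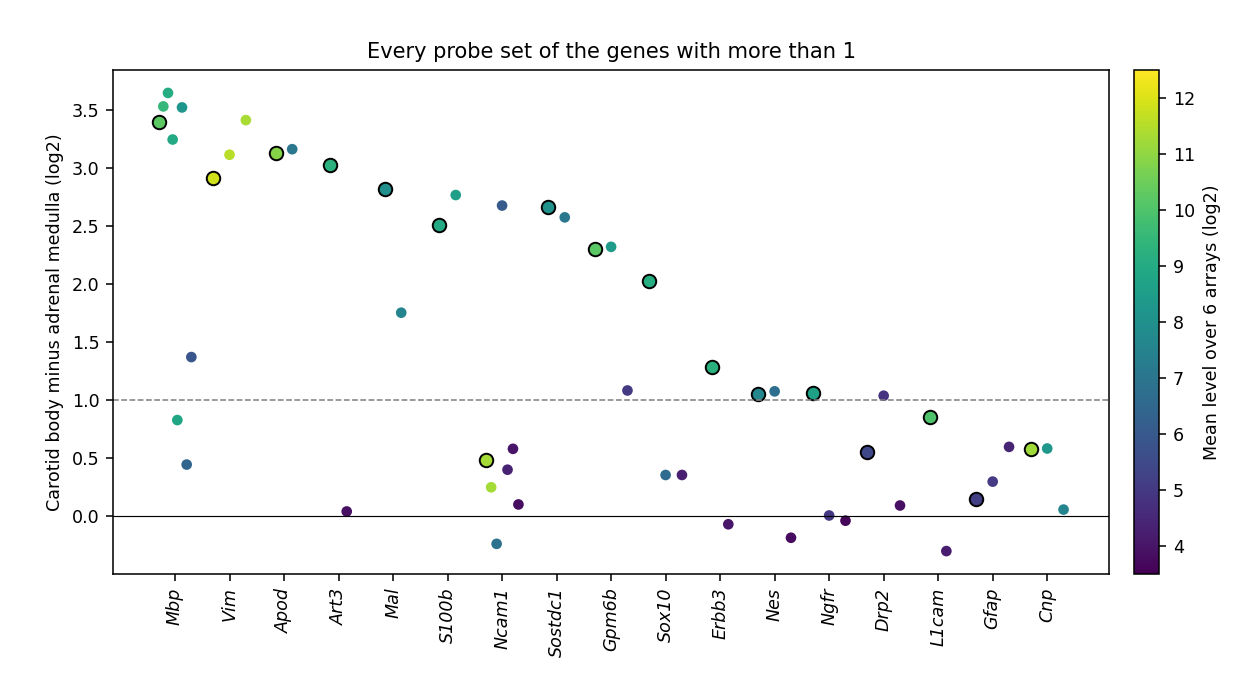
Difference between tissues (y axis, log2) at every probe set of the 17 genes with more than 1, coloured by mean level over the 6 arrays. Outlined points are the brightest probe set of a gene, dashed is 2-fold; the Mbp points run from 0.44 to 3.64 and those of Ncam1 from -0.24 to 2.67.

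Other genes of myelin and glia were read from lists made by name. Of 35 further myelin genes measured, 10 were higher in carotid body, 0 were lower and 25 were not called, with a median difference of 0.41. That is 28.6% higher, against 5.91% of all genes. Itgb4, the laminin receptor subunit on the outer Schwann cell surface and on epithelia, differed by 3.23 ± 0.23 (adjusted p = 0.00012). Aspa, an enzyme that frees acetate for myelin lipids, differed by 2.87 and Bcas1, a protein of early myelinating cells, by 2.34, or by 0.80 and not called with the mean of its probe sets. Dhh, the hedgehog ligand of Schwann cells, differed by 2.08 (adjusted p = 0.000589), and its receptor gene Ptch1, named after its value was seen, by 1.83.

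Among 39 further genes of satellite and non-myelinating glia, 24 were higher in carotid body, 0 were lower and 15 were not called, with a median difference of 1.25. That is 61.5% higher, against 5.91% of all genes. Gap43, of growing axons and non-myelinating Schwann cells, differed by 5.27, and the axonal potassium channel Kcna1 by 4.13. Gap43 and Kcna1 count among the 24 and are not in the list of axon and neuron markers. The adaptor gene Plekha4 differed by 3.34 ± 0.17 (adjusted p = 3.73e-05). Gdnf, a neurotrophic factor of glia and other cells, was 6.11, 7.19 and 8.06 in carotid body against 4.31, 3.90 and 4.02, a difference of 3.04 (adjusted p = 0.00246, and 0.069 without cohort 2). Cryab stands in both of these lists, and Cspg4 is also a pericyte marker. Without cohort 2, the 24 became 17 and the 10 further myelin genes became 7.

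Of 30 genes by which axons and glia signal or adhere, 10 were higher in carotid body, 2 were lower and 18 were not called. That is 33.3% higher, against 5.91% of all genes, of which 6.08% were called lower. Ntrk3, a neurotrophin receptor, differed by 3.96 ± 0.24 (adjusted p = 6.05e-05) and Jag1, a Notch ligand, by 3.32. Erbb2, the signalling partner of Erbb3, differed by 1.43 ± 0.17 (adjusted p = 0.00103), beside the 1.28 of Erbb3 itself, and was named after its value was seen. Both genes called lower in carotid body code for adhesion proteins of axons. Nrcam was 4.89, 5.86 and 5.16 in carotid body against 7.87, 8.59 and 8.59, a difference of -3.05 ± 0.29 (adjusted p = 0.000427). Cntnap2, of the zone beside the node of Ranvier, differed by -2.71 (adjusted p = 0.000561), and by -0.92 with the mean of its probe sets.

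Markers of other cells that share genes with these glia gave the following counts. Over all genes 5.91% were called higher and 6.08% lower, and counts near those shares say little about the cells. Of 16 axon and neuron markers 1 was higher in carotid body, Sncg at 2.07, and 2 were lower, Rbfox3 at -2.85 and Scg2 at -1.83. The median difference was 0.18, and 10 of the 16 differences were positive. The log2 of their sum ran from 13.94 to 14.31 on carotid body arrays and from 14.89 to 15.22 on adrenal arrays, a gap carried by Scg2, a granin that chromaffin cells also make. Without Scg2 the sums overlapped, at 13.31 to 13.85 and 13.20 to 13.83. The neurofilament genes Nefl, Nefm and Nefh, of large axons, differed by 0.40, -0.33 and 0.50 (adjusted p = 0.555, 0.643 and 0.253). None of 8 markers of oligodendrocytes, the myelinating cells of the central nervous system, was called, and their summed log2 level was 7.25 to 7.36 against 7.16 to 7.23. The brightest of them, Hapln2 and Myrf, averaged 5.21 and 4.87 in carotid body, and Mog, the defining marker, 3.25. Of 6 melanocyte markers, a crest-derived cell type that also uses Sox10 and Erbb3, 0 were called; Dct differed by 0.81.

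**Figure D4:**
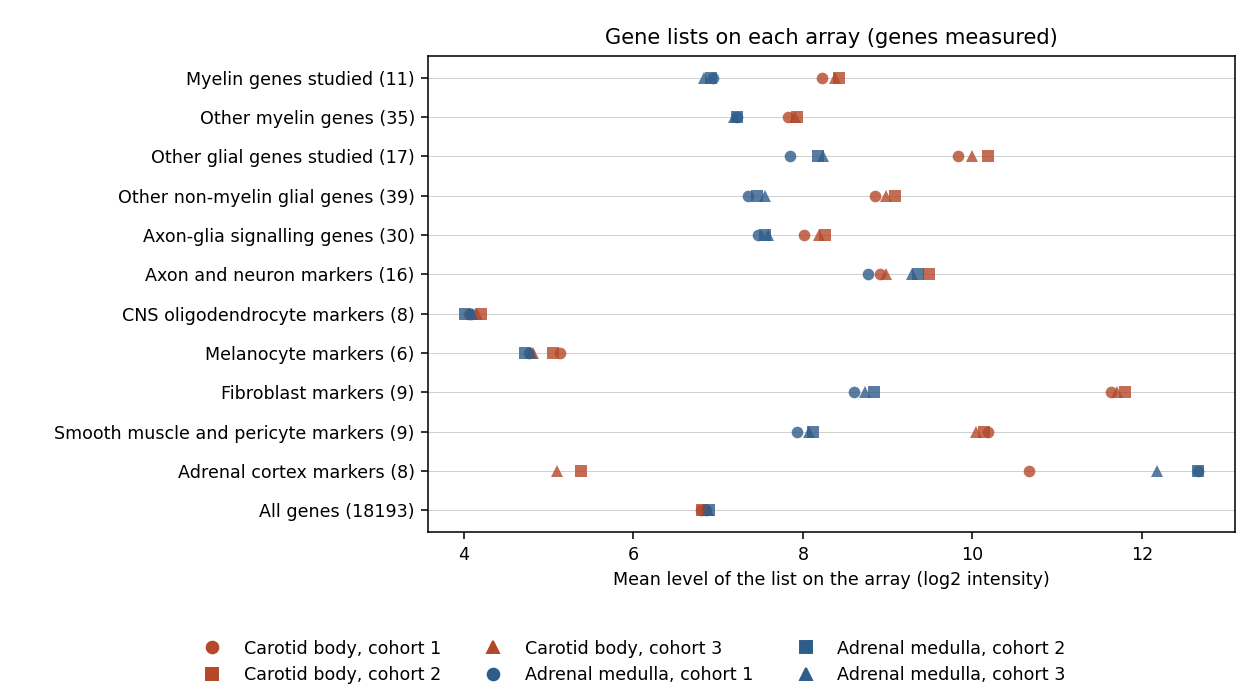
Mean level of each gene list on each array (x axis, log2 intensity), with the number of genes measured in brackets; symbols mark cohorts and colours tissues. The studied myelin and other glial genes separate by tissue, the oligodendrocyte list stays near 4, and the cortex list of carotid body array 1, at 10.67, lies nearer to the adrenal arrays than to the other carotid body arrays.

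Since many of these genes are known targets of SOX factors, their promoters were searched for SOX letters. The RefSeq table (GRCm38.p6) held windows of 250 bases before to 50 after a transcript start for 22 of the 30 genes, 33 windows in all. Mbp, Pmp2, Drp2, Sox10, Erbb3, Cdh19, Sostdc1 and Ncam1 had no window. ACAAAG or ACAATG, on either strand, was in 9 of the 33 windows, or 27.3%, and in 28.6% of all 32851 windows. For genes called higher the share was 28.6% of 21 windows, and for measured genes not called it was 3 of 10 windows. Counted by gene, 36.4% of the 22 genes and 42.9% of the 14 called higher had a match in at least 1 window, against 31.7% of all genes. The 22 genes had more windows per gene, with 33 windows, than all 27025 genes with 32851. More windows raise the share counted by gene. These shares were not tested, and both matching windows of Mag hold 1 and the same genomic site. A match is a description and not a binding site. The stretches that follow show the letters, in capitals, upstream of a start. They come from 4 genes that were higher in carotid body, Apod, Gpm6b, Sox2 and Cadm4, and 2 that were not called, Cnp and Mag. Art3 and Plekhb1, also called higher, had a match upstream of a start too, and their stretches are not printed. All printed stretches are written 5′ to 3′ on the gene's strand.
Apod, chr16:31314842-31314937, minus strand: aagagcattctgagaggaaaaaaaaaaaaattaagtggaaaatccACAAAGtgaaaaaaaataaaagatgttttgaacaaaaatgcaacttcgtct
Gpm6b, chrX:166238833-166238928, plus strand: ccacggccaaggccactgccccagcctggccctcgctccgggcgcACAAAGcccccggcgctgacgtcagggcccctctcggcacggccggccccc
Sox2, chr3:34649745-34649839, plus strand: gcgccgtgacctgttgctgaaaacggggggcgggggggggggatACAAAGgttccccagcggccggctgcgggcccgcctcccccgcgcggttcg
Cadm4, chr7:24481857-24481952, plus strand: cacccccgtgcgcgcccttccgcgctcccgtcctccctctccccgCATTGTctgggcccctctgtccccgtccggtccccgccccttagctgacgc
Cnp, chr11:100574727-100574822, plus strand: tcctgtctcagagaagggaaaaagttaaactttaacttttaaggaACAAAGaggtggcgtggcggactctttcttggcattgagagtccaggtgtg
Mag, chr7:30914939-30915034, minus strand: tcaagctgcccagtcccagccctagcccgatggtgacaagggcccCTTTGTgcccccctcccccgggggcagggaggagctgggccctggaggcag
In Apod the letters end 78 bases before the start and in Gpm6b 59 bases before it. CATTGT in Cadm4 and CTTTGT in Mag are the same letters read from the opposite strand.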

How the data were processed

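The deposited table holds the authors' log2 intensity of each probe set on each array, which Affymetrix Expression Console produced, as the submitters' processing notes say. Its version, the summarisation and any normalization between arrays are not given in the sources used; that values are log2 was read from the values. Per the labels' protocols, labelling used the 3' IVT Express kit. Of 45101 probe sets 64 controls were left out. By the platform's 2016 annotation, 1 symbol went with 34945 probe sets, several with 932 and none with 9160. Gene IDs of 34741 were matched to a RefSeq table (GRCm38.p6), which changed 0 symbols.

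limma 3.58.1 in R 4.3.3 (lmFit, eBayes) compared the 2 tissues over 45037 probe sets with no filter and no block, two-sided, and was tested on simulated data. Calls need both an adjusted p under 0.05 and at least 1 on the log2 scale. The number of arrays, 3 a tissue, limits the precision, and the pools of a tissue come from separate cohorts.

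The members, lists and tests were chosen with earlier results of these data known. Every measured gene of the glia list is given. Of most other lists the rule names the 4 genes that differ most among those past 0.05, or else the 2 brightest. Their values are given where a result turns on them, and other names were chosen after their values were seen. This rule was not applied to the fibroblast, smooth muscle and pericyte, chromaffin and glomus, and cortex lists. Same-numbered arrays come from 1 cohort, per the series' design text, though their Xist levels differed widely. Deviations of same-numbered arrays from the tissue means correlated at 0.22, 0.08 and 0.16, and unlike-numbered ones at -0.21 to 0.10. The 16 alternatives are in the closing section.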

Additional observations from a re-analysis of the deposited data

How the results depend on the processing

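Myelin genes called higher numbered 6 under all 16 alternatives, and other glial genes called higher 10 to 14; 0 genes of either class were called lower under any of them. Of the 19 called genes, 15 kept their call throughout and 4, Sox10, Erbb3, Foxd3 and Nes, lost it under at least 1; of the 9 not called, Ngfr alone gained one. With the cohort as a replicate block, other glial genes called higher were 14 and further non-myelin genes called lower 1, Aldh1a1, which was also called lower with centred arrays, with dim probe sets removed, with the mean of probe sets and without adrenal medulla array 2, 1 gene each. With the mean of probe sets, 7 signalling genes were higher in place of 10, without Axl, Gas6 and Notch1, and 1 was lower in place of 2. Leaving out arrays or cohorts in turn gave 11 to 14 other glial genes, 7 to 11 further myelin genes, 17 to 26 further non-myelin genes and 8 to 11 signalling genes higher, 0 to 1 further non-myelin and 2 to 3 signalling genes lower, and, of all probe sets, 1626 to 3025 higher and 952 to 2499 lower in place of 2680 and 2064, the lowest of each being without cohort 2. Chosen after seeing the data, the mean of all Sox10 probe sets as reference turned the ratios of Pmp22 and Erbb3 to 0.21 and 0.37, and leaving out Scg2 turned the difference in summed axon and neuron markers from -0.87 to 0.0099. With centred arrays the median over all probe sets was -0.11 in place of 0.01 (log2).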
